A study of Mus musculus with 24 samples.

Results

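Forebrain chromatin that carries H3K4me1 was divided by whether it also carries H3K27ac. H3K4me1, monomethylation of lysine 4 of histone H3, is written mainly by the MLL3 and MLL4 complexes at enhancers, the regulatory elements that act on genes from a distance. H3K27ac, acetylation of lysine 27, is written by the acetyltransferases p300 and CBP at enhancers and promoters in use, and enhancers with H3K4me1 but without H3K27ac are commonly called primed. H3K27me3 is written on the same lysine 27 by Polycomb repressive complex PRC2, whose catalytic subunit is EZH2, so a single histone tail can carry acetylation or methylation there but not both. Pax6, a transcription factor with a paired domain and a homeodomain, acts in the radial glial progenitors of the dorsal forebrain. H3K4me3 marks promoters, and regions that carry it were set aside.

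Forebrain of CD-1 mouse embryos was dissected at E12.5, in the period when cortical neurons begin to form, and used for ChIP-seq with no genetic change or treatment given in the labels. The H3K4me1, H3K27ac, H3K4me3, H3K27me3 and RNA polymerase II lists each came from 1 library, and 1 Pax6 list stood for 2 libraries. Newborn lens of the same stock at P1 supplied lists of the same marks and of FAIRE, a method that isolates open chromatin, each from 1 library. Lens and forebrain therefore differ in tissue and in age, which cannot be told apart. There are no replicates behind any comparison below, so no test over samples was possible. Every interval is a 95% interval for counting error over islands only, and islands are not replicates. In the RNA-seq library of the same tissue the forebrain genes Emx1, Neurog2 and Tubb3 stood at 76.0, 43.4 and 460.6 RPKM. The globin genes Hba-x, Hbb-bh1, Hba-a1 and Hbb-y stood at 301.1, 280.3, 956.3 and 4223 RPKM, so RNA of blood cells was present. The markers of endothelium lay between 2.82 and 5.83 RPKM and those of mesenchyme between 2.72 and 12.7 RPKM. The lens crystallins Cryaa and Crygc stood at 18.2 and 5.33 RPKM in forebrain. The part of blood and other cells in the chromatin lists was not tested.

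The H3K4me1 list held 40774 islands, stretches of 200-bp windows rich in reads that the SICER program joins over gaps of up to 600 bp. Of these, 9668 (23.7%) overlapped an H3K4me3 peak by at least 1 bp and were left out. The remaining 31106 islands, 76.3% of all, were split by overlap of at least 1 bp with an H3K27ac peak. No H3K27ac peak was listed at 23512 islands, called primed here in that sense alone, and 7594 islands had one and are called acetylated. Acetylated islands made up 24.4% of those kept (exact interval 23.9 to 24.9%), against 34.7% of all 40774 islands and 67.7% of the islands with H3K4me3. Names of genes near the islands are not given here, and positions are on the mouse build mm9. In bulk tissue, a mark on few cells and a weaker mark on many cells cannot be told apart, and neither can 2 marks on the same cells and 2 marks on different cells.

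Acetylated islands were wider than primed ones and denser in H3K4me1 reads. The median width was 3800 bp in acetylated islands, with the middle 50% between 2600 and 5600 bp, and 2800 bp in primed islands, with the middle 50% between 2200 and 3800 bp. The ratio of the medians was 1.36 (interval 1.29 to 1.36, with widths in steps of 200 bp). The classes overlapped over most of their range and parted in the upper tail, where the 95th percentile stood at 10600 bp against 6400 bp. Islands of at least 10 kb were 6.08% of the acetylated and 0.944% of the primed islands. Acetylated islands covered 35.1 Mb in all and primed islands 76.1 Mb.

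H3K4me1 reads per kb of island had a median of 38.8 in acetylated and 32.1 in primed islands, a ratio of 1.21 (interval 1.195 to 1.219). Reads of the control library over the same islands did not follow that order, with medians of 20.5 per kb in acetylated and 21.0 per kb in primed islands. The authors' ratio of H3K4me1 over control, scaled by library size, accordingly had a median of 3.26 in acetylated and 2.64 in primed islands. The difference in density held at equal width. When islands were compared within 5 classes of width and the classes averaged with the same weights, the medians were 38.7 and 31.7 reads per kb, a ratio of 1.22 (interval 1.197 to 1.245). Among primed islands density went from 37.0 reads per kb in the narrowest class through 31.7, 29.7 and 28.9 to 30.4 in the widest. Among acetylated islands it went from 41.4 through 37.5 in each middle class to 39.1.

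**Figure D1:**
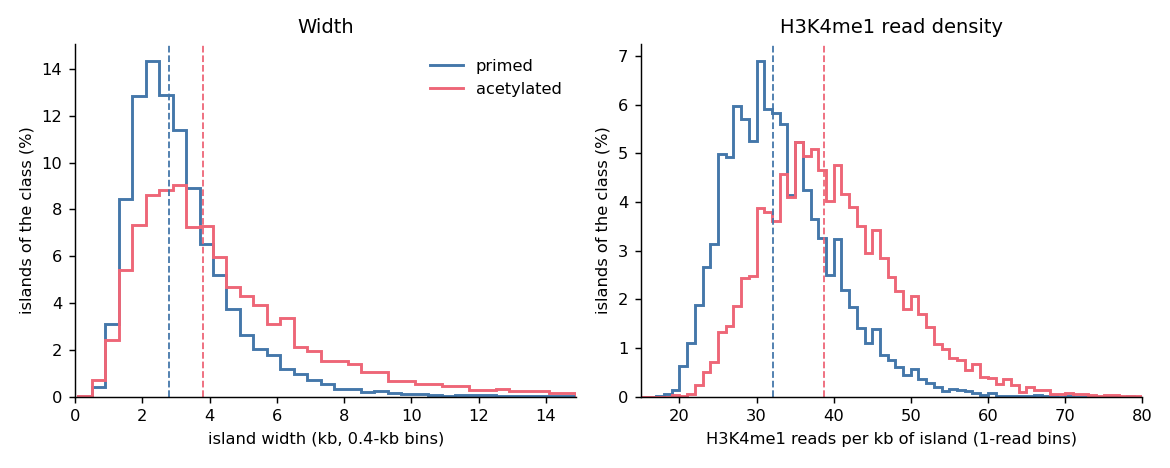
Share of the islands of each class (vertical axis, %) by island width (left, kb) and by H3K4me1 reads per kb (right), for primed islands (blue) and acetylated islands (red), with dashed lines at the medians. Acetylated islands are shifted to higher width (3.8 against 2.8 kb) and higher density (38.8 against 32.1 reads per kb); 50 primed and 133 acetylated islands of 14.9 kb or more, and 8 and 5 of 80 or more reads per kb, lie beyond the axes.

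Read from the other side, the share of islands with an H3K27ac peak rose with H3K4me1 density more steeply than with width. From the sparsest to the densest of 5 classes of reads per kb the share of acetylated islands went from 7.21% through 14.1, 20.7 and 30.4% to 50.0%. Over 5 classes of width it was 17.2, 16.5, 20.2, 25.7 and 44.6%, flat among the narrow islands and high in the class from 4.8 kb up. The densest primed islands were not the widest, since their median width went from 3600 bp in the sparsest to 2000 bp in the densest class. Among acetylated islands the median width changed little, from 3800 to 3600 bp. The share of acetylated islands also rose over 5 classes of the ratio over control, from 7.34 to 44.0%. Over 5 classes of control reads per kb it moved little, from 25.1% in the lowest through 27.2% to 21.4% in the highest.

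**Figure D2:**
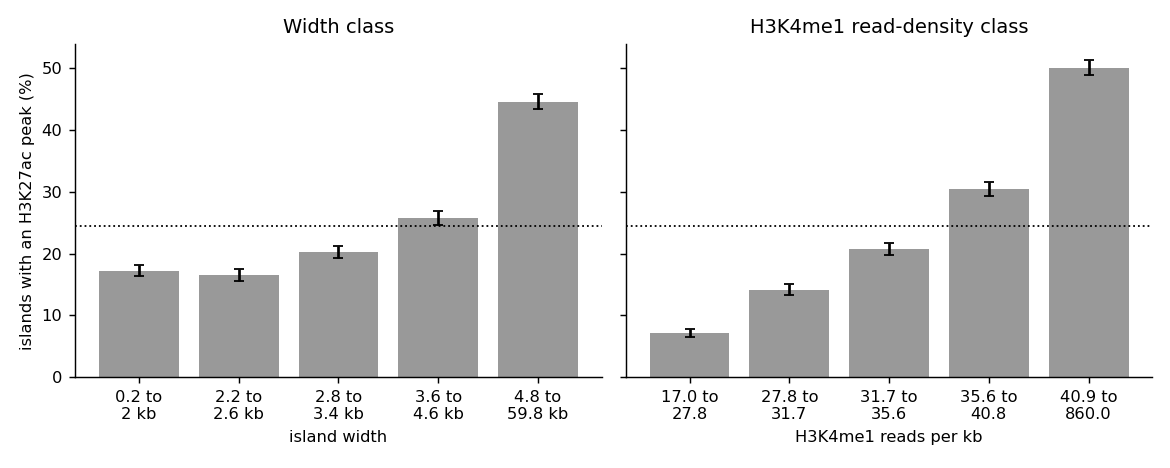
Share of kept islands with an H3K27ac peak (vertical axis, %) in 5 classes of width (left, kb) and of H3K4me1 reads per kb (right), with exact 95% intervals and a dotted line at 24.4%, the share over all kept islands. The densest class reaches 50.0% and the sparsest 7.21%.

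H3K27ac peaks, as listed, occupied a limited stretch of most acetylated islands. The lists came from different programs, with a median width of 527 bp for H3K27ac peaks and 3000 bp for H3K4me1 islands. What the programs contribute to the share covered was not tested. The peaks covered a median of 19.5% of the island, with the middle 50% between 11.03 and 33.17% and the 95th percentile at 59%. A single peak was found in 68.0% of acetylated islands, 2 in 21.7%, 3 in 5.95% and 4 or more in 4.29%, with 20 at most. The islands with 1, 2, 3 and 4 or more peaks had median widths of 3200, 4400, 6400 and 9500 bp and medians of 37.6, 40.3, 42.4 and 44.7 H3K4me1 reads per kb. Summits of H3K27ac lay toward the centre, with 68.8% in the middle 50% of the island. Only 3.06 and 2.97% lay in the outermost 10% at either end.

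Of the 26863 H3K27ac peaks, 11410 (42.5%) lay in acetylated islands and 8386 (31.2%) in islands with H3K4me3. The peaks in acetylated islands were weaker, with a median fold enrichment of 5.49 by the authors' peak caller against 7.84. From the quartile of acetylated islands with the weakest top peak (fold up to 4.70) to the quartile with the strongest (fold from 7.92), median width rose from 3400 to 4200 bp. H3K4me1 density rose over the same quartiles from 36.4 through 37.5 and 39.5 to 42.5 reads per kb. The acetylated islands with the highest H3K27ac fold stood at the border of the class. The strongest peak had a fold of 55.98 and lay in chr1:64169201-64170200, an island of 1000 bp that ended 0.338 kb from an H3K4me3 peak. The next 4, with folds from 40.2 to 52.0, lay between 0.016 and 0.446 kb from one. All 5 had 1 H3K27ac peak, no Pax6 peak and no H3K27me3, and 4 of the 5 had H3K27ac in lens as well. Over all acetylated islands, 9.60% had a Pax6 peak, 21.4% met H3K27me3 and 21.9% met H3K27ac in lens.

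The limit between the classes is an overlap of 1 bp. Just inside it, 108 acetylated islands overlapped their H3K27ac peaks by 200 bp or less. They had a median width of 2000 bp, 37.3 H3K4me1 reads per kb and a Pax6 peak at 4.63% (interval 1.52 to 10.5%). Just outside it, 671 primed islands (2.85%) had an H3K27ac peak within 1 kb. Those had a median width of 2200 bp, 36.3 reads per kb and a Pax6 peak at 0.745% (0.24 to 1.73%). The Pax6 intervals overlapped, which does not show the shares to be alike. Over the whole classes, Pax6 stood at 9.60% of acetylated and 4.93% of primed islands, with median widths of 3800 and 2800 bp. H3K27me3 was present at 26.9% (18.8 to 36.2%) just inside and 31.0% (27.5 to 34.7%) just outside. For most primed islands acetylation was far, at a median of 37.6 kb. The nearest H3K27ac peak was more than 100 kb away for 25.8% of them. Acetylated islands were closer to H3K4me3 than primed ones, with medians of 60.0 and 86.4 kb, and 10.7 against 5.90% lay within 5 kb of it.

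Acetylated islands also lay next to each other more often. The nearest kept island was acetylated for 36.4% of acetylated islands (interval 35.3 to 37.5%) and for 21.4% of primed islands (20.8 to 21.9%). For neighbours over 10 kb away the shares were 32.4 and 19.2%. By chromosome, the share of acetylated islands ranged from 19.4% on chromosome 16 to 30.4% on the X, where 293 islands were kept.

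The widest islands of both classes included a neighbouring pair on chromosome 4. The widest acetylated island, chr4:81981201-82041000, spanned 59.8 kb with 37.2 H3K4me1 reads per kb, and it held 1 H3K27ac peak of fold 6.16 and 1 Pax6 peak of fold 12.3. After a gap of 28.6 kb came chr4:82069601-82122200, a primed island of 52.6 kb with 46.2 reads per kb, no H3K27ac peak and 1 Pax6 peak of fold 11.6. Neither overlapped H3K27me3, and both overlapped H3K4me1, FAIRE and Pax6 regions in lens. In H3K27ac, the acetylated island here differed from the primed one by a single peak over 59.8 kb. The primed island was the denser in H3K4me1 reads, and it lay closer to H3K4me3, at 21.0 against 102.2 kb. The second widest acetylated island, chr8:87229201-87278200, was of another kind, with 20 H3K27ac peaks over 49.0 kb, 59.6% of it under H3K27me3. Among the 5 widest primed islands, chr2:77725401-77768400 stood apart by its control reads, 78.2 per kb against 20.6 to 23.4 in the other 4, and its ratio over control was 1.32.

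H3K27me3 overlapped somewhat more of the primed than of the acetylated islands. An H3K27me3 island was met by 24.1% of primed islands (5668, interval 23.6 to 24.7%) and by 21.4% of acetylated islands (1626, 20.5 to 22.4%), a difference of 2.70 percentage points (1.61 to 3.76, Newcombe's method). Over all 40774 H3K4me1 islands the share was 23.7%. Acetylated islands were wider and so had more room to overlap, and within equal classes of width the shares were 24.2 and 20.7%, a difference of 3.50 points (2.39 to 4.61). In the narrowest class, up to 2 kb, they were 25.28 and 18.002%. In the widest, from 4.8 kb, they were 25.8 and 24.1%. The intervals overlapped in every class but the narrowest.

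The classes also differed in how fully H3K27me3 lay over them. Of the primed islands, 14.8% lay wholly inside H3K27me3, against 8.69% of the acetylated islands. At equal width these shares were 14.5 and 9.48%, a difference of 5.04 points (4.19 to 5.89). Partial overlap went the other way, at 9.26% of primed and 12.7% of acetylated islands, and at equal width 9.66 and 11.2%, though with the ratio over control also held the interval of that difference (-0.31 to 1.64 points) included 0. By length, H3K27me3 covered 19.3% of primed and 15.7% of acetylated island bases. The H3K27me3 over primed islands was also stronger, with a median ratio over control of 3.86 against 3.23 at acetylated islands, and its islands were longer, 8.4 against 6.4 kb. Among the 7294 kept islands with H3K27me3, the share that was acetylated fell over quartiles of that ratio, from 28.3% through 24.8 and 21.6% to 14.5% where H3K27me3 was strongest. H3K4me1 density stayed close over the same quartiles, from 35.0 to 33.1 reads per kb.

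Among primed islands H3K27me3 became more frequent with H3K4me1 density, and among acetylated islands it did not. In primed islands the share with H3K27me3 rose from 18.2% in the sparsest through 23.15, 25.01 and 27.84% to 30.2% in the densest class of H3K4me1 reads per kb. In acetylated islands it went from 24.9 through 22.6, 22.0 and 21.7 to 20.1%. Among acetylated islands, the intervals of the sparsest (449 islands) and the densest class overlapped each other. In the sparsest class H3K27me3 was thus more frequent at acetylated islands (interval 21.0 to 29.2%) than at primed islands (17.2 to 19.2%). That order is the opposite of the one over all kept islands. Over classes of the ratio over control, primed islands went from 17.2 to 31.1% and acetylated islands from 18.2 through 20.2, 22.5 and 21.4 to 21.8%, so the slight fall in acetylated islands was not seen on that scale. The difference between the classes in this course was not tested.

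Pooled over the acetylated islands that met H3K27me3, bases inside and outside H3K27ac peaks lay under it in similar shares, which full cover partly fixes. In the 1626 acetylated islands that met H3K27me3, 65.7% of the bases in H3K27ac peaks and 67.6% of the bases outside them lay under it. Of 2436 H3K27ac summits in those islands, 66.1% (interval 64.2 to 68.0%) lay under H3K27me3. In 660 of the islands H3K27me3 covered the whole island, so every base and summit lay under it by definition. Only the 966 partly covered islands can show a difference, and whether they do was not tested. Acetylated islands wholly under H3K27me3 had a median top H3K27ac fold of 5.60, against 5.93 in those free of it. Their H3K4me1 density was 37.6 against 38.9 reads per kb. The share with H3K27me3 did not rise or fall steadily with the strength of H3K27ac, at 20.2, 22.4, 22.7 and 20.4% over quartiles of the top fold.

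**Figure D3:**
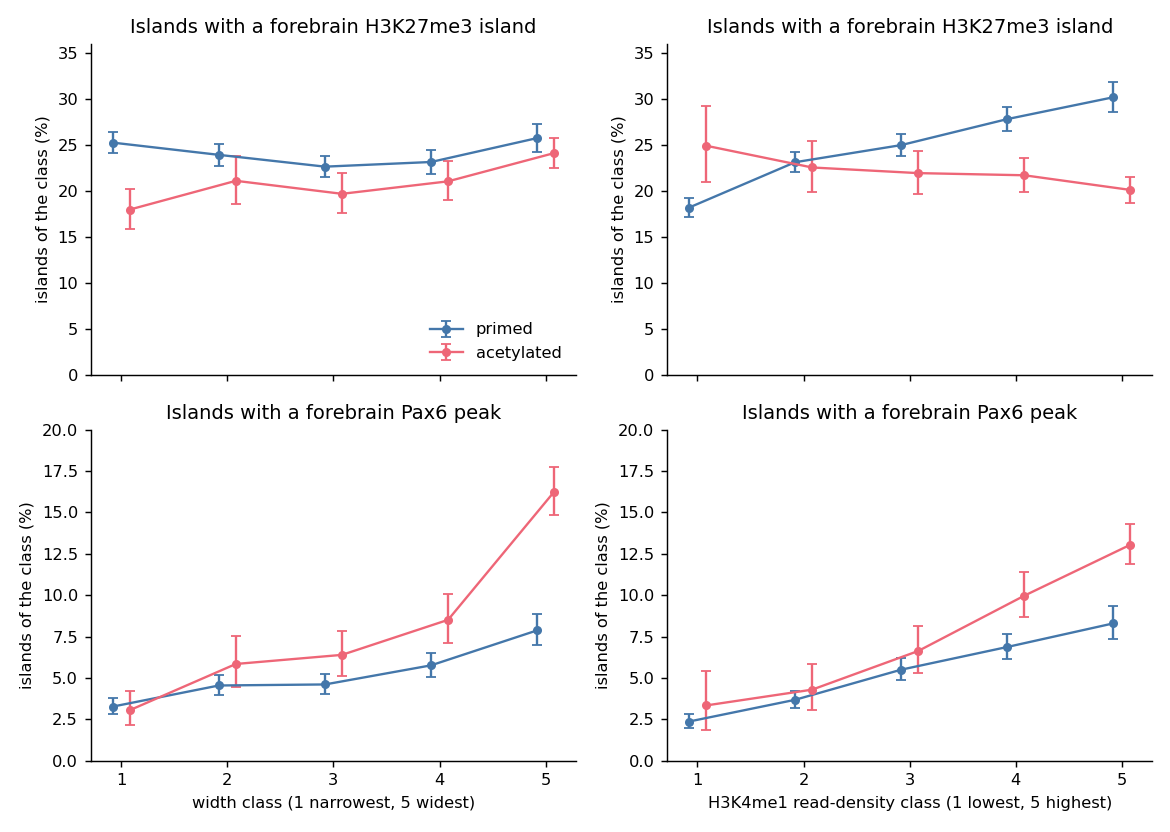
Share of primed (blue) and acetylated (red) islands with a forebrain H3K27me3 island (top, %) and with a Pax6 peak (bottom, %) in 5 classes of width (left) and of H3K4me1 reads per kb (right), with exact 95% intervals. With reads per kb, H3K27me3 goes from 18.2 to 30.2% in primed islands and from 24.9 to 20.1%, with overlapping intervals, in acetylated ones (18.2 to 21.8% over classes of the ratio over control, not drawn), whereas Pax6 rises in both.

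Of the 2716 primed islands of at least 5 kb, 277 (10.2%) lay wholly under H3K27me3. The highest H3K27me3 ratio over control among these was 29.1, at chr10:50610201-50615400. That island held 26.5 H3K4me1 reads per kb and lay 296.9 kb from the nearest H3K4me3 peak. The next was chr13:31716601-31722200, with an H3K27me3 ratio of 25.3 and 25.5 H3K4me1 reads per kb. Of the 5 islands with the highest ratios, only chr2:146657801-146663600 held a Pax6 peak, of fold 5.04. Over all primed islands wholly under H3K27me3, the share with Pax6 was 10.5%.

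Pax6 peaks were found at 729 acetylated islands, 9.60% of the class (interval 8.95 to 10.3%), and at 1158 primed islands, 4.93% (4.65 to 5.21%). The difference was 4.67 percentage points (3.97 to 5.41), and over all 40774 H3K4me1 islands the share was 5.16%. Counted by peaks, 1196 of the 3536 Pax6 peaks lay in primed and 783 in acetylated islands. Thus more Pax6 peaks lay at H3K4me1 without H3K27ac than with it, since primed islands are the larger class. The peaks were similar in strength, with median folds of 6.80 in primed and 6.48 in acetylated islands. A second Pax6 peak was seen in 3.11% of primed and 7.00% of acetylated islands with Pax6.

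The difference was smaller at equal width. Within equal classes of width the shares were 7.78% in acetylated and 5.12% in primed islands, a difference of 2.66 points (2.005 to 3.316). The intervals of the classes overlapped in the narrowest islands, at 3.06 and 3.27%, and the classes stood furthest apart in the widest, at 16.2 and 7.88%. The widest class still spans islands from 4.8 to 59.8 kb, and with 19 finer classes of width the difference was 2.43 points.

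At equal H3K4me1 reads per kb as well as equal width, the interval of the Pax6 difference included 0. Over 25 classes of width and reads per kb the shares were 5.81% in acetylated and 6.11% in primed islands, a difference of -0.30 points (-0.98 to 0.38). Acetylated islands had the higher share in 11 of the 25 classes, primed islands in 13, and 1 was equal. In the widest and densest class, Pax6 stood at 21.4% of 1097 acetylated and 20.4% of 274 primed islands. Holding density alone left a difference of 2.10 points (1.41 to 2.80).

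That result depended on how density was expressed. With classes of width and of the ratio over control in place of reads per kb, the difference was 2.58 points (1.79 to 3.37). Pax6 followed the control reads, and its share over 5 classes of control reads per kb rose from 2.35% through 4.03, 5.71 and 7.46 to 10.8%. Islands with Pax6 had medians of 23.2 control reads per kb among primed and 22.6 among acetylated islands, against 20.8 and 20.3 in those without it. Over classes of the ratio over control the Pax6 share had no steady course, at 4.84, 6.53, 6.88, 6.87 and 5.22%. With width and control reads per kb held, but not H3K4me1 reads, the difference was 3.04 points (2.36 to 3.71). With width, H3K4me1 and control reads per kb all held, the difference was 0.33 points (-0.54 to 1.20). What the control reads reflect at Pax6 islands was not tested.

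H3K27me3 divided the Pax6 result further. In islands without H3K27me3, Pax6 stood at 8.23% of acetylated and 3.04% of primed islands, and the difference was 3.67 points (2.99 to 4.35) at equal width and 1.35 points (0.59 to 2.11) at equal width and reads per kb. In islands with H3K27me3 the shares were 14.6 and 10.9%, and the difference was -0.09 points (-1.82 to 1.63) at equal width. At equal width and reads per kb it was -3.87 points (-5.55 to -2.20), with Pax6 more frequent at the primed islands. With the ratio over control held in place of reads per kb, the differences were 3.79 points (2.92 to 4.67) without H3K27me3 and -0.22 points (-2.14 to 1.69) with it. The acetylated excess in islands without H3K27me3 was thus present on both scales, and the primed excess in islands with it on the scale of reads per kb only.

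**Figure D4:**
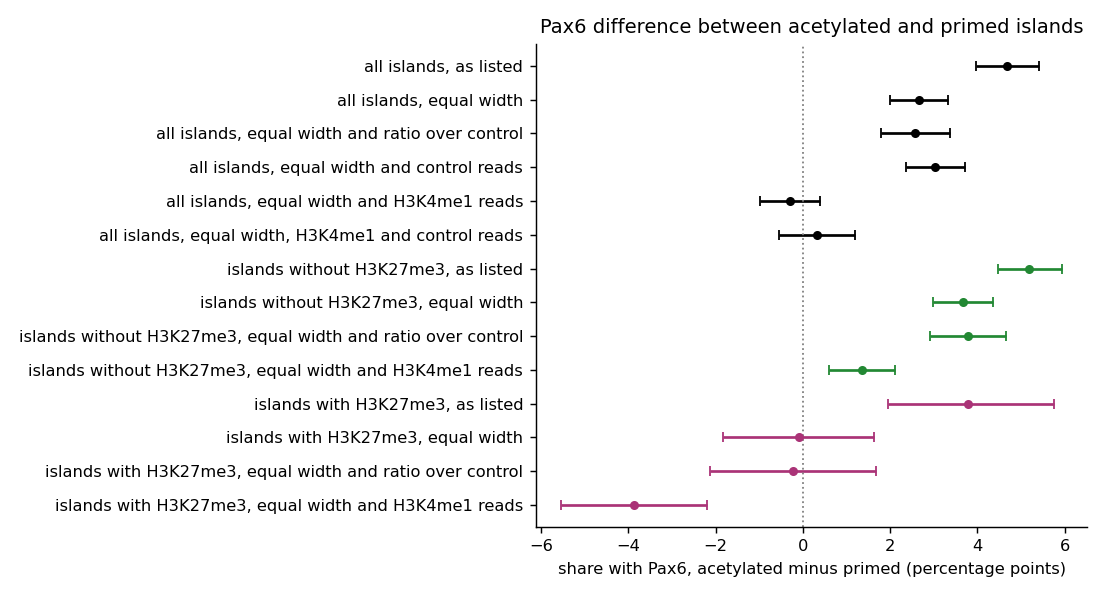
Difference in the share of islands with a Pax6 peak, acetylated minus primed (horizontal axis, percentage points, with 95% intervals), over all kept islands (black), islands without H3K27me3 (green) and islands with it (purple), as listed and with width, reads or ratio held equal. Over all islands the difference is 4.67 points as listed and -0.30 with width and H3K4me1 reads held, where islands without H3K27me3 give 1.35 and islands with it -3.87; with width and the ratio over control held these are 3.79 and -0.22.

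In both classes Pax6 was more frequent where H3K27me3 was present. Among primed islands the share with Pax6 was 3.04% without H3K27me3, 11.4% where it covered a part and 10.5% where it covered the whole island. Among acetylated islands the shares were 8.23, 15.7 and 13.0%. At equal width and H3K4me1 reads per kb, the difference between islands with and without H3K27me3 was 6.83 points (6.03 to 7.64) in primed and 5.91 points (4.11 to 7.71) in acetylated islands. With control reads per kb also held it was 7.32 and 6.37 points.

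Per length of DNA, the same order held. Primed islands held 15.6 Pax6 summits per Mb and acetylated islands 22.1 per Mb, against 6.51 per Mb in the islands with H3K4me3. Primed islands without H3K27me3 held 9.48 per Mb (8.70 to 10.3) and acetylated islands without it 19.1 per Mb (17.5 to 20.8). Wholly under H3K27me3, primed islands held 37.3 per Mb (33.6 to 41.3) and acetylated islands 38.0 per Mb (30.8 to 46.5), and those intervals overlapped. Of the Pax6 peaks themselves, 38.5% in primed islands and 20.1% in acetylated islands overlapped H3K27me3, against 27.5% of all 3536 Pax6 peaks.

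**Figure D5:**
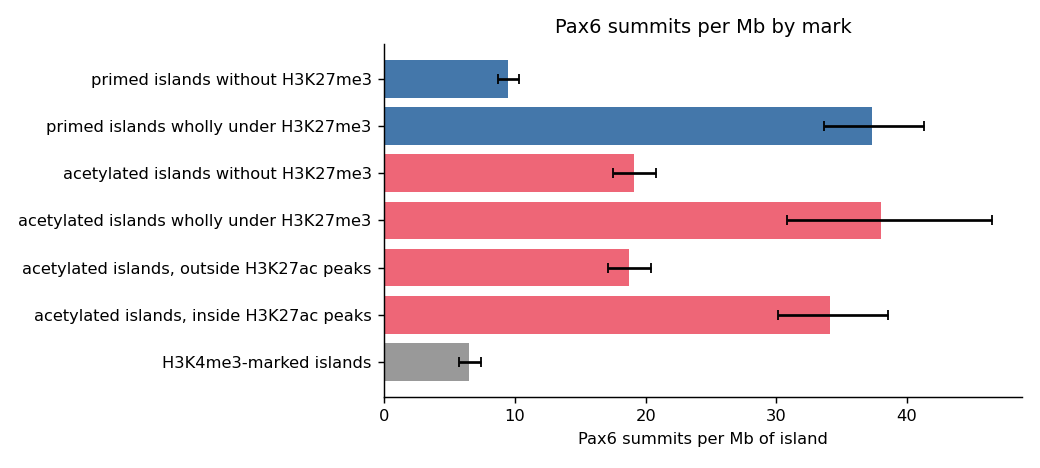
Pax6 summits per Mb (horizontal axis) in primed islands (blue), acetylated islands (red) and islands with H3K4me3 (grey), with exact Poisson 95% intervals. Primed islands go from 9.48 per Mb without H3K27me3 to 37.3 wholly under it, and acetylated islands hold 34.1 per Mb inside and 18.7 outside their H3K27ac peaks.

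Inside acetylated islands, Pax6 summits lay in or near H3K27ac peaks more often than island bases as a whole. Of the 774 Pax6 summits there, 259 (33.5%, interval 30.1 to 36.9%) lay inside an H3K27ac peak, whereas those peaks made up 21.6% of island bases. Summits of Pax6 stood at 34.1 per Mb inside and 18.7 per Mb outside the H3K27ac peaks. The 515 summits outside had a median distance of 228 bp to the nearest H3K27ac peak, and 85.4% (82.1 to 88.4%) were within 1 kb, against 946 bp and 51.9% for all island bases outside the peaks. The bases of acetylated islands outside H3K27ac peaks thus still held more Pax6 summits per Mb than primed islands as a whole. Pax6 was also central in both classes, with 75.8% of summits in the middle 50% of acetylated and 76.8% in the middle 50% of primed islands. H3K27ac summits were central too, at 68.8%, and the comparisons with all island bases did not hold place in the island equal. Whether Pax6 lay nearer to H3K27ac than this shared central place gives was not tested. The frequency of Pax6 went up with the number of H3K27ac peaks, from 7.59% of islands with 1 peak through 10.9 and 15.7% to 26.4% of those with 4 or more, and so did island width. Over quartiles of the top H3K27ac fold it was 7.53, 9.40, 10.1 and 11.4%.

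The strongest Pax6 peaks at primed islands lay largely under H3K27me3. The highest fold, 53.6, was at chr3:159513201-159516200, an island of 3000 bp with 29.7 H3K4me1 reads per kb that lay wholly under H3K27me3 of ratio 9.35. The second, of fold 51.2, was at chr19:15576601-15578800, and the third, of fold 40.9, at chr6:138701201-138704600, where the H3K27me3 ratio was 15.9. Of the 5 strongest, 4 were wholly covered by H3K27me3 and chr1:157157401-157160400 was covered over 26.7%. Over all primed islands 14.8% were wholly covered, and 38.5% of the Pax6 peaks in them overlapped H3K27me3. All 5 had a Pax6 peak in lens too, against 2.86% of all primed islands and 26.3% of the Pax6 peaks in them. None had H3K27ac in lens, which only 4.13% of all primed islands had.

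At acetylated islands the highest Pax6 fold was 41.0, at chr4:141095001-141101000, an island of 6000 bp with 3 H3K27ac peaks that ended 0.046 kb from an H3K4me3 peak. The second was chr9:77347201-77352400, with a Pax6 fold of 31.5 and 2 H3K27ac peaks. Of the 5 strongest, only chr8:12427001-12437200, with a fold of 28.8, overlapped H3K27me3, and it was wholly covered. Over all acetylated islands 21.4% overlapped H3K27me3. H3K27ac in lens was present at 3 of these 5 islands and Pax6 in lens at 4, against 21.9 and 4.71% of all acetylated islands. Of the Pax6 peaks in acetylated islands, 26.8% overlapped a Pax6 peak in lens.

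Of the 10 islands with the highest H3K4me1 ratio over control, 5 in each class, 9 had at most 13 control reads. None of the 10 held a Pax6 peak, which only 5.16% of all H3K4me1 islands had. Among primed islands the ratio reached 13.0 at chr4:129372201-129373200, from 53 H3K4me1 and 7 control reads over 1000 bp. Among acetylated islands it reached 11.4 at chr11:54828601-54830000, from 73 and 11 reads over 1400 bp. The exception was the acetylated island chr7:26064601-26066800, with 200 H3K4me1 and 38 control reads over 2200 bp. Of the 5 primed islands of highest ratio, 3 lay under H3K27me3, and of the 5 acetylated islands 1 did. Over all primed and acetylated islands, 24.1 and 21.4% overlapped H3K27me3.

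The split by forebrain H3K27ac was also visible in the lens lists. Lens H3K27ac overlapped 21.9% of acetylated and 4.13% of primed islands, a difference of 17.8 points that was 14.0 (12.8 to 15.1) at equal width and H3K4me1 reads per kb. Lens H3K4me1 overlapped 44.1 and 26.7%, and here the difference of 17.4 points was 1.17 (-0.17 to 2.51) when width and reads per kb were held equal. Lens FAIRE behaved likewise, with 25.4 and 19.2% and a difference of 0.14 points (-1.13 to 1.41) at equal width and reads per kb. Lens Pax6 met 4.71 and 2.86%, and the difference became -0.16 points (-0.70 to 0.39). Lens H3K27me3 was found at 18.3% of acetylated and 15.4% of primed islands, the opposite order from forebrain H3K27me3, and at equal width and reads per kb the difference was 2.65 points (1.39 to 3.91). RNA polymerase II in forebrain, a list of 1704 peaks, met 49 acetylated islands (0.645%) and 4 primed islands (0.017%). Over all 40774 H3K4me1 islands the shares were 21.4% for lens H3K27ac, 33.0% for lens H3K4me1 and 22.3% for lens FAIRE. They were 2.92% for lens Pax6, 16.6% for lens H3K27me3 and 0.927% for forebrain RNA polymerase II. These shares include the islands with H3K4me3, of which 63.0% met lens H3K27ac and 3.36% forebrain RNA polymerase II.

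A subset of primed forebrain islands carried H3K27ac in lens. There were 971 such islands, and 85.4% of them had H3K4me1 in lens, against 24.2% of the other 22541 primed islands. In forebrain they differed little in form, with a median width of 3000 bp and 34.1 H3K4me1 reads per kb, against 2800 bp and 32.0. H3K27me3 in forebrain was present at 37.1% of them (interval 34.0 to 40.2%) and at 23.5% of the other primed islands (23.0 to 24.1%). Pax6 in forebrain was present at 13.4% (11.3 to 15.7%) and 4.56% (4.29 to 4.84%). A lens H3K4me3 peak, a promoter mark, was found at 16.1% of the 971 and at 1.95% of the others. Of the 1663 islands with H3K27ac in both tissues, 20.6% had forebrain H3K27me3 and 14.7% had forebrain Pax6, against 21.6 and 8.16% of the 5931 with H3K27ac in forebrain only.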

How the data were processed

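Per the submitters' processing notes, SICER and the build mm9 were used; by the names of the lists, windows measured 200 bp, gaps up to 600 bp and the FDR 0.001 for H3K4me1 and H3K27me3. Each island in these deposited lists has read counts for ChIP and control, their ratio after scaling to library size (here a control library 1.71 times the size of the H3K4me1 library) and a p-value with its FDR. For H3K27ac, H3K4me3, Pax6 and RNA polymerase II the authors used MACS2, and the deposited lists give a fold enrichment and -log10 p and q-values. The FAIRE list gives positions only, as deposited. The authors deposited RNA values as RPKM, with TopHat2 (2), Cufflinks (2) and Cuffdiff named in the submitters' processing notes. The sources used here do not give the ChIP-seq aligner, most versions, the control library of each list, the way the 2 Pax6 libraries were combined or the library totals. Depth is thus known only as reads in islands, 5110088 for H3K4me1.

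Intervals were overlapped with Python 3.11.15 (pandas 2.3.3, scipy 1.17.1) at a minimum of 1 bp, with code checked against bedtools 2.31.1 and on simulated data. Shares have exact Clopper-Pearson 95% intervals. Equal-width values average 5 width classes, cut at the quintiles of all kept islands, with the share of kept islands in each class as weights, with normal-approximation intervals, and ratios of medians have bounds set by the order-statistic intervals of both medians. The named regions are the 5 widest islands of each class, the 5 with the highest H3K27ac fold, the highest Pax6 fold in each class, the most H3K27me3 among primed islands of at least 5 kb (all wholly covered, ranked by ratio) and the highest H3K4me1 ratio in each class, chromosome 18 left out. Genes were not assigned, because no annotation of mm9 was used here. Reads are not independent molecules. A marker of the forebrain list is not reported here. The classes, marker lists and comparisons were chosen with earlier results of these data known, and holding reads per kb, the ratio or control reads equal, finer classes, the splits by H3K27me3, full cover at equal width and the distances of bases were added after seeing the data.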

Additional observations from a re-analysis of the deposited data

How the results depend on the processing

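Of 9 other settings, leaving out the 1% of islands richest in control reads and using autosomes only left all 8 results within their counting error, and none of the 9 reversed a direction. The share of acetylated islands was 22.3% with an overlap of 0.5 of the shorter interval and 23.7% with gaps of up to 1 kb counted. These settings applied to every list overlapped, H3K4me3 included, so the set of kept islands changed too. Acetylated and primed islands numbered 8015 and 28010 with the 0.5 overlap, and 7071 and 22726 with the gaps. The share was 10.3% with the stricter H3K27ac list and 39.4% with the stricter H3K4me1 list. It was 34.7% with H3K4me3-marked islands kept and 23.5% without islands within 5 kb of H3K4me3. The width ratio (1.36) was 1.40 with the stricter H3K27ac list, 1.24 with the stricter H3K4me1 list and 1.21 with H3K4me3-marked islands kept. The reads per kb ratio (1.21, or 1.22 at equal width) was 1.18 and 1.19 at equal width with the 0.5 overlap, 1.27 and 1.27 with stricter H3K27ac, 1.13 and 1.15 with stricter H3K4me1, and 1.15 and 1.15 with H3K4me3-marked islands kept.

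The H3K27me3 difference (2.70 points, primed minus acetylated) was 1.27 with the 0.5 overlap, 7.55 with stricter H3K4me1, 4.32 with stricter H3K27me3 and Pax6 lists and 1.57 with H3K4me3-marked islands kept. At equal width (3.50) it was 8.15 with stricter H3K4me1, 4.79 with stricter H3K27me3 and Pax6, and, added after seeing the data, 5.10 with the ratio over control held. The Pax6 difference (4.67 points, acetylated minus primed) was 2.47 with the stricter H3K27me3 and Pax6 lists and 2.05 with H3K4me3-marked islands kept. At equal width (2.66) these settings gave 1.42 and 0.84. Among alternatives added after seeing the data its sign changed, at -0.30 points (-0.98 to 0.38) with reads per kb held over 25 classes and -0.64 (-1.38 to 0.09) with 10 classes of each, and it was 0.33 with control reads also held; these intervals include 0. Each stricter list held a share of 0.5 of its regions, those with the smallest FDR or q-value. The stricter H3K27ac, H3K27me3 and Pax6 lists thus hold fewer regions by construction. A lower share of acetylated islands with the stricter H3K27ac list follows from that. With H3K4me3-marked islands kept, that share is the 34.7% of all 40774 islands given above. The cause of the other changes was not tested. No paired analysis was possible because each list stands for 1 library or a pooled pair.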

Other observations

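Some acetylation and some Pax6 lay outside H3K4me1 altogether. Of the 26863 forebrain H3K27ac peaks, 7148 (26.6%) met no H3K4me1 island, and 5463 of these had H3K4me3. The 1685 with neither mark were narrow, with a median width of 363 bp against 492.5 bp for the peaks in acetylated islands, and their median fold was 5.27 against 5.49. Of the Pax6 peaks, 1325 (37.5%) met no H3K4me1 island. These had a median fold of 6.93 and overlapped a Pax6 peak in lens in 48.2% of cases (interval 45.5 to 51.0%), against 26.3% of the Pax6 peaks in primed and 26.8% of those in acetylated islands. H3K27me3 was present at 20.3% of them. Over all 3536 Pax6 peaks, 35.2% overlapped a Pax6 peak in lens and 27.5% overlapped H3K27me3.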
